A study of Mus musculus with 6 samples.

Results

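The genes described here are 9 enzymes of serine synthesis and folate-bound one-carbon metabolism, measured in the mouse mammary carcinoma line 4T1. They were taken as a named list (Phgdh, Psat1, Psph, Shmt1, Shmt2, Mthfd1, Mthfd2, Mthfd1l and Aldh1l2), with identifiers matched to symbols of GENCODE M21, and all 9 were found among the 28418 genes in the deposited tables. Exposed cells, labelled 100 nM PFOS, gave 3 libraries, and unexposed cells, labelled 0 nM PFOS, gave 3. PFOS stands for perfluorooctane sulfonate, a fluorinated surfactant that degrades very slowly. Both groups were the same line, described by the labels as epithelial cells, and were kept for 35 passages. The study compared the transcriptomes of the exposed and the unexposed cells, using poly(A) RNA read in pairs. 4T1 is a single cell line used as a mouse model of triple-negative breast cancer, and whether replicate libraries were made from different cultures is not stated by the labels. The p-values therefore measure the spread between these libraries, which may be technical. Values are FPKM, fragment counts corrected for the length of the transcript and the mapped total of the library.

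Cells make serine from the glycolytic intermediate 3-phosphoglycerate in a short chain of reactions catalysed by the products of Phgdh, Psat1 and Psph. Serine hydroxymethyltransferases then move a carbon from serine to tetrahydrofolate, giving glycine. The MTHFD enzymes interconvert the folate-bound carbon between its oxidation states, with separate enzymes in mitochondria and in the cytosol. Among the members, SHMT2, MTHFD2, MTHFD1L and ALDH1L2 are mitochondrial, and SHMT1 and MTHFD1 are cytosolic. The carbon is used for purine and thymidylate synthesis and for methionine regeneration. Many proliferating tumour cells, breast cancer cells among them, express the serine and mitochondrial folate enzymes highly, and the transcription factor ATF4 is a known activator of several of these genes.

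Promoter sequences were read for the tested members with the largest differences between groups. These were Psat1 and Mthfd2 on the lower side and Mthfd1 on the higher side. Each is the 250 bases before the start of the gene in RefSeq on GRCm38.p6, given 5′ to 3′ on the strand of the gene, at chr19:15925060-15925309 (minus strand) for Psat1, chr6:83317605-83317854 (minus strand) for Mthfd2 and chr12:76254982-76255231 (plus strand) for Mthfd1. In the deposited tables Psat1 runs from 15904678 to 15947337, so its RefSeq window lies inside that span. Capitals mark CCAAT, the core of the site of the factor NF-Y, or its reverse complement ATTGG.
Psat1: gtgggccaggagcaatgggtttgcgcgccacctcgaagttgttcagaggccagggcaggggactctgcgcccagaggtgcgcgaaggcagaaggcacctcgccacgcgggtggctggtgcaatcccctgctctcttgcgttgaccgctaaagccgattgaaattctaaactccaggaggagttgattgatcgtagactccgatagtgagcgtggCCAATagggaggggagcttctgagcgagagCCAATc
Mthfd2: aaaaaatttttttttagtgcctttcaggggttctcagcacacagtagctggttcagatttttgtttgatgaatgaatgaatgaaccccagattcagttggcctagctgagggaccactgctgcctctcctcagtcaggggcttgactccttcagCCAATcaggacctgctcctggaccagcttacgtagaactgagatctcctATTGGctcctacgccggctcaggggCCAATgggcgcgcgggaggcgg
Mthfd1: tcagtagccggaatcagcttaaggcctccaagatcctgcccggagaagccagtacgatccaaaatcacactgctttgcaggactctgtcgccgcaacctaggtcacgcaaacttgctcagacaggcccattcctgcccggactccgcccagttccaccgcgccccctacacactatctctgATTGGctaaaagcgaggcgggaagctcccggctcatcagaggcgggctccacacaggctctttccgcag

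CCAAT on either strand was found 2 times in this Psat1 window, 3 times in that of Mthfd2 and 1 time in that of Mthfd1. RefSeq promoters were held for 8 members, 9 windows in all because Psat1 has 2 starts. The other Psat1 window, not printed, held 0 matches, as did those of Mthfd1l and Shmt2. There were 2 matches for Phgdh, 2 for Psph and 1 for Shmt1. CCAAT was present in 6 of the 9 windows and in 33.8% of 32851 promoter windows of the same length. It was searched for after the sequences and the expression values had been seen. The other motifs searched on both strands were TGATGNAA, the composite element that ATF4 and C/EBP proteins bind, the cyclic AMP response element TGACGTCA, and the E-box CACGTG. These letters were in 0 of the 9 windows for each motif, against 3.45%, 1.55% and 6.02% of all windows in that order.

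At 100 nM PFOS, Psat1 was lower, at 0.926 times its mean FPKM at 0 nM, and it was the 1 member that passed the test. Mthfd2 had the largest difference among the members tested, at 0.855 times, and did not pass. Mthfd1 stood at 1.06 times and Phgdh at 0.954 times, and neither passed. Of 8 members tested, 0 rose and 1 fell at a Benjamini-Hochberg adjusted p under 0.05 by limma on log2(FPKM + 1), where 4.15% of all 11741 genes tested were called, 2.46% lower and 1.69% higher. The members' share of 12.5% rests on that single gene. The difference was below 0 for 7 of the 8 and above 0 for Mthfd1, and the median over the 8 was -0.06, against 0.01 over all genes tested. The ninth member, Aldh1l2, did not reach the mean of 1 FPKM required for testing.

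**Figure D1:**
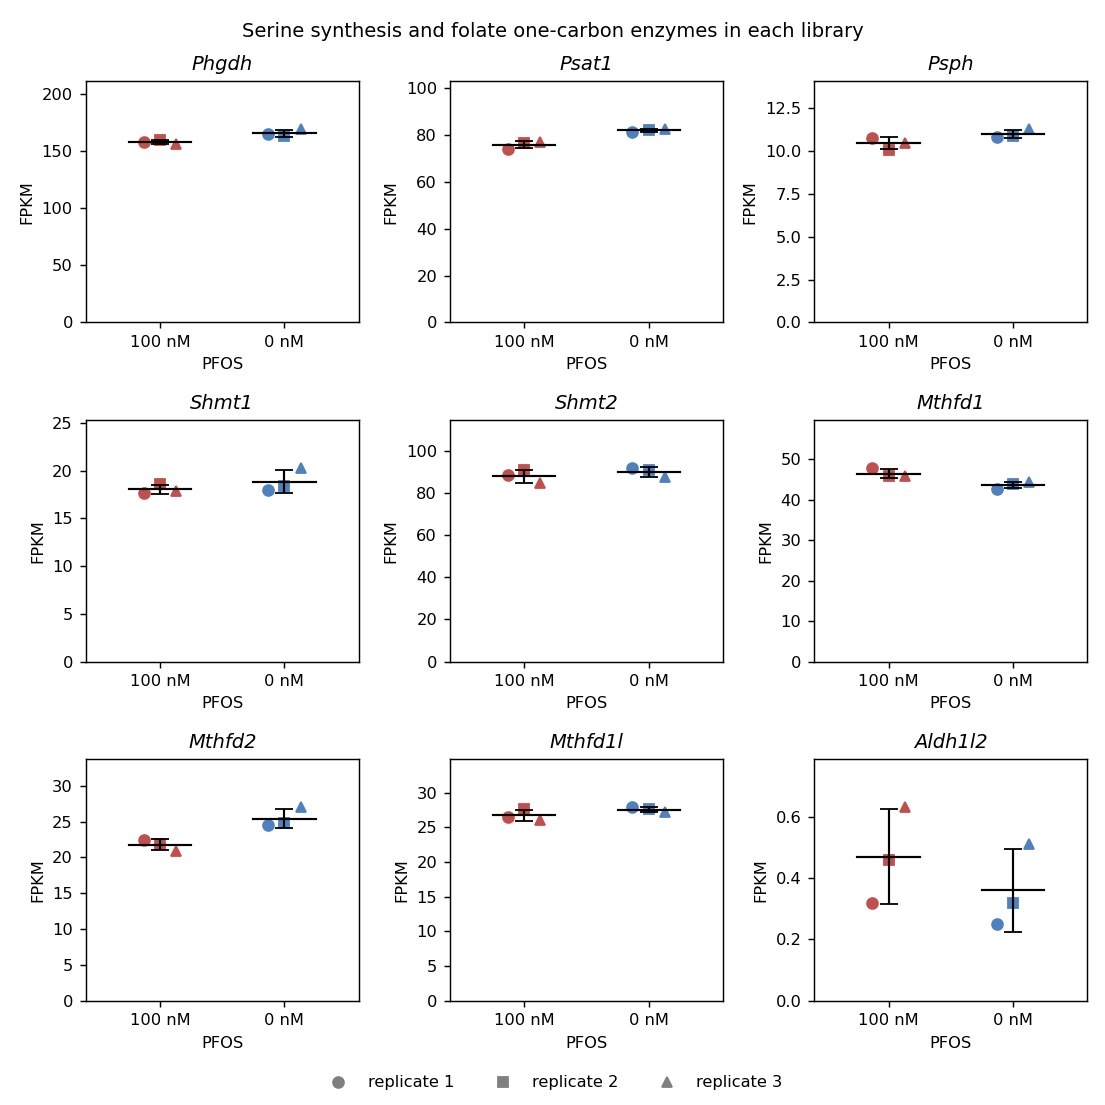
FPKM of the 9 members in each library, with 100 nM PFOS at the left and 0 nM PFOS at the right of each panel; markers are replicates, the bar is the mean and the whiskers are the SD (n = 3). The groups do not overlap for Phgdh, Psat1, Psph, Mthfd1 and Mthfd2, and every panel but that of Aldh1l2 shows differences that are small beside the level of the gene.

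By level, the 9 genes spanned a wide range, with Phgdh highest at a mean of 161.8 FPKM over the 6 libraries and Aldh1l2 lowest at 0.415 FPKM. Between them came Shmt2 at 89.1, Psat1 at 78.8, Mthfd1 at 45.0, Mthfd1l at 27.2, Mthfd2 at 23.6, Shmt1 at 18.4 and Psph at 10.7 FPKM. FPKM is scaled by length, so these levels can be set side by side. Neighbours in this order had ranges over the 6 libraries that did not overlap, except Mthfd1l (26.0 to 27.9 FPKM) and Mthfd2 (20.9 to 27.0 FPKM). The coefficient of variation over the 6 libraries was 2.65% to 5.10% for 7 members, 9.51% for Mthfd2 and 34.5% for Aldh1l2. Shmt2 stood above its cytosolic counterpart Shmt1 in every library, by 4.75 to 5.02 times at 100 nM and by 4.33 to 5.11 times at 0 nM.

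Phgdh encodes phosphoglycerate dehydrogenase, the first enzyme of serine synthesis (ENSMUSG00000053398, chromosome 3, 98313170 to 98339990, minus strand of GRCm38). It stood at 157.6, 159.8 and 156.5 FPKM at 100 nM, against 164.7, 163.1 and 169.1 FPKM at 0 nM. The 3 exposed libraries were all below the 3 unexposed ones, the nearest values being 159.8 and 163.1 FPKM. In log2(FPKM + 1) the groups differed by -0.07 ± 0.02 (SE), which did not pass (limma adjusted p = 0.129). The level of Phgdh is uncertain, because 56.3% of the 31-base words in its transcripts also occur in transcripts of other genes. The annotated processed pseudogene Gm7901 held 44.8% of all Phgdh words and was listed at 24.5, 21.6 and 22.1 FPKM at 100 nM and at 22.3, 23.9 and 26.0 FPKM at 0 nM. Another pseudogene, Gm9347, was listed at 16.1 to 16.9 FPKM at 100 nM and 15.3 to 17.5 FPKM at 0 nM. How reads common to the gene and these copies were assigned is not given in the sources used here.

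Psat1 encodes phosphoserine aminotransferase, which carries out the second step of the chain (ENSMUSG00000024640, chromosome 19, 15904678 to 15947337, minus strand). It stood at 74.0, 76.4 and 76.9 FPKM at 100 nM, against 81.4, 81.9 and 82.3 FPKM at 0 nM. The unexposed libraries lay within 1 FPKM of each other, and the exposed libraries were all lower. Means were 75.8 ± 1.53 FPKM at 100 nM and 81.9 ± 0.476 FPKM at 0 nM (SD, n = 3 each), and in log2(FPKM + 1) the groups differed by -0.11 ± 0.02 (SE; limma adjusted p = 0.0431). The call was lost in 11 of 18 alternative settings. Leaving out any 1 of the 6 libraries ended it, with differences of -0.12 to -0.09 and limma adjusted p of 0.0627 to 0.135. Only 2.18% of its 31-base words were shared with other genes. The gene overlaps a processed pseudogene, Gm3329, on the other strand.

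Psph encodes phosphoserine phosphatase, which releases serine (ENSMUSG00000029446, chromosome 5, 129765558 to 129787449, minus strand). It stood at 10.8, 10.1 and 10.5 FPKM at 100 nM, against 10.8, 10.9 and 11.3 FPKM at 0 nM. The groups were separated by 10.76 FPKM in replicate 1 at 100 nM and 10.84 FPKM in replicate 1 at 0 nM, a gap smaller than the spread within either group. The difference of -0.07 ± 0.03 (SE) did not pass (limma adjusted p = 0.320), and its 95% interval ran from -0.15 to 0.01. Psph overlaps Cct6a, a chaperonin subunit gene of 128.5 to 134.0 FPKM at 100 nM and 121.4 to 125.4 FPKM at 0 nM, on the other strand, and 9.79% of its words were shared with other genes. Whether strand was used in quantification is not given, so reads from the Psph and Cct6a overlap cannot be assigned here. Summed over the 3 serine synthesis genes, FPKM was 244.2 ± 1.98 at 100 nM and 258.5 ± 3.68 at 0 nM (SD, n = 3 each), and Phgdh made up most of both sums.

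Among the mitochondrial enzymes, Mthfd2 encodes a methylenetetrahydrofolate dehydrogenase and cyclohydrolase that is abundant in embryonic and tumour tissue (ENSMUSG00000005667, chromosome 6, 83305691 to 83317606, minus strand). It stood at 22.5, 21.9 and 20.9 FPKM at 100 nM, against 24.5, 24.8 and 27.0 FPKM at 0 nM. All 3 exposed libraries were lower, and the spread was widest among the unexposed ones, where replicate 3 was highest. Means were 21.7 ± 0.771 and 25.4 ± 1.36 FPKM (100 nM and 0 nM, SD, n = 3 each). In log2(FPKM + 1) the groups differed by -0.22 ± 0.04 (SE; limma adjusted p = 0.0515), and the 95% interval corresponds to 0.800 to 0.927 times the level at 0 nM. Of all genes tested, 3.77% were lower by at least as much. Mthfd2 passed in 5 of 18 alternatives, with an adjusted p between 0.0345 and 0.0444. Its transcripts shared 0 of 3477 words with other genes. Mthfd2 overlaps Gm43890 on the same strand, and its coordinates in the deposited tables differ from those of GENCODE M21.

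Shmt2, the mitochondrial serine hydroxymethyltransferase gene (ENSMUSG00000025403, chromosome 10, 127517123 to 127522444, minus strand), stood at 88.6, 90.9 and 84.9 FPKM at 100 nM, against 91.8, 90.9 and 87.7 FPKM at 0 nM. The groups overlapped, with replicate 3 lowest in each. The difference of -0.03 ± 0.03 (SE) did not pass (limma adjusted p = 0.625), and its 95% interval allows 0.928 to 1.03 times the level at 0 nM. Shmt2 overlaps Ndufa4l2 on the other strand, and 3.61% of its words were shared with other genes. Mthfd1l encodes the mitochondrial formyltetrahydrofolate synthetase (ENSMUSG00000040675, chromosome 10, 3973118 to 4167081, plus strand). It stood at 26.6, 27.6 and 26.0 FPKM at 100 nM, against 27.9, 27.6 and 27.3 FPKM at 0 nM. The groups overlapped there too, and the difference of -0.04 ± 0.03 (SE) did not pass (limma adjusted p = 0.453; 95% interval 0.926 to 1.02 times). Mthfd1l overlaps a processed pseudogene, Gm16074, and a small RNA gene, Gm25515, on the same strand. Aldh1l2 encodes the mitochondrial formyltetrahydrofolate dehydrogenase (ENSMUSG00000020256, chromosome 10, 83487450 to 83534140, minus strand). It stood at 0.32, 0.46 and 0.63 FPKM at 100 nM, against 0.25, 0.32 and 0.51 FPKM at 0 nM. The mean was higher at 100 nM, at 0.470 FPKM against 0.360 FPKM at 0 nM. The groups overlapped, and without the filter on low values its limma adjusted p was 0.731. Its level is uncertain, because 14.7% of its words were shared with other genes and it overlaps D10Wsu102e, on the other strand, which was listed at 0.68 to 0.69 FPKM at 100 nM and 0.68 to 0.70 FPKM at 0 nM.

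Of the cytosolic pair, Mthfd1 encodes the trifunctional enzyme that joins the dehydrogenase, cyclohydrolase and synthetase activities (ENSMUSG00000021048, chromosome 12, 76255298 to 76319803, plus strand). It stood at 47.7, 45.8 and 45.8 FPKM at 100 nM, against 42.7, 43.9 and 44.3 FPKM at 0 nM. All 3 exposed libraries were higher, with 45.8 and 44.3 FPKM the nearest values. The difference of 0.09 ± 0.03 (SE) did not pass (limma adjusted p = 0.127), and its 95% interval corresponds to 1.02 to 1.11 times the level at 0 nM. Mthfd1 overlaps Gm47525, Gm47526 and Gm34868 on the other strand, and 0.158% of its words were shared with other genes. Shmt1 encodes the cytosolic serine hydroxymethyltransferase (ENSMUSG00000020534, chromosome 11, 60788104 to 60811265, minus strand). It stood at 17.7, 18.6 and 17.9 FPKM at 100 nM, against 18.0, 18.4 and 20.2 FPKM at 0 nM. The groups overlapped, and the difference of -0.06 ± 0.05 (SE) did not pass (limma adjusted p = 0.545). It came to -0.01 without replicate 3 at 0 nM, the library with the highest Shmt1 value. Shmt1 overlaps Smcr8 and Gm24945 on the other strand, and 4.86% of its words were shared with other genes. The coordinates of Shmt1 in the deposited tables differ from those of GENCODE M21.

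**Figure D2:**
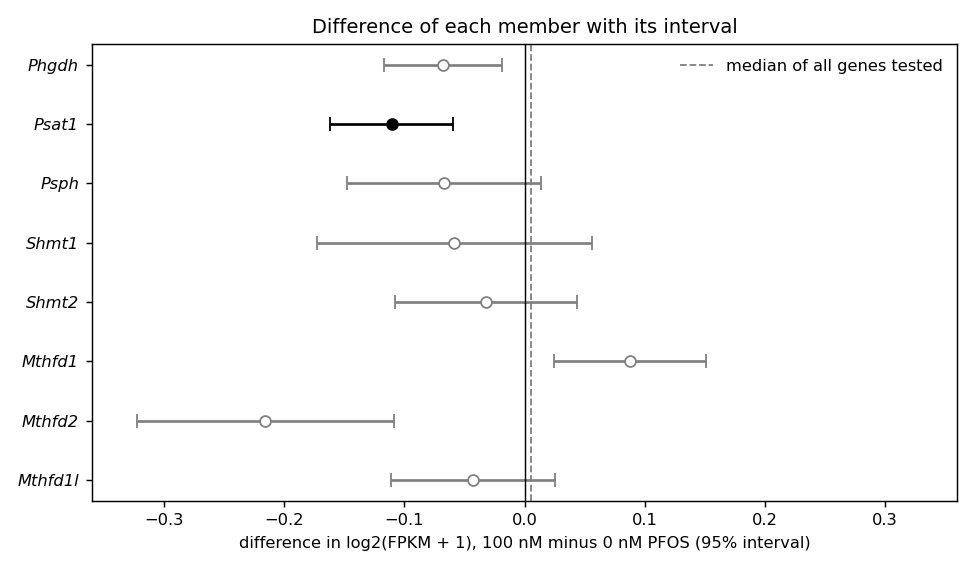
Difference of each of the 8 tested members in log2(FPKM + 1), 100 nM minus 0 nM PFOS, with its 95% interval from limma; the filled point passed at an adjusted p under 0.05, and the dashed line is the median of all genes tested (0.01). The intervals of Phgdh, Psat1 and Mthfd2 lie below 0 and that of Mthfd1 above 0, before adjustment over all genes.

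Counted over the list, 5 of the 8 tested members had FPKM values that did not overlap between groups, 4 of them lower and Mthfd1 higher at 100 nM. That holds for 26.9% of all genes tested in either direction and for 13.3% in the lower one. At an unadjusted p under 0.05 there were 4 members, Phgdh, Psat1, Mthfd1 and Mthfd2, where the share of all genes was 20.7%. The members are enzymes of a common route in the same 6 libraries, so these counts are not independent observations.

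The balance of mitochondrial and cytosolic transcripts was compared within each library, for the members only. Other folate cycle genes were left out, among them Mthfd2l at 2.49 and 2.47 FPKM (100 nM and 0 nM). The summed FPKM of Shmt2, Mthfd2, Mthfd1l and Aldh1l2 over that of Shmt1 and Mthfd1 was 2.11, 2.19 and 2.08 at 100 nM, against 2.38, 2.31 and 2.21 at 0 nM. All 3 exposed libraries had a lower ratio. The means were 2.13 ± 0.0553 and 2.30 ± 0.0857 (100 nM and 0 nM, SD, n = 3 each), a log2 difference of -0.11 with a two-sided exact permutation p of 0.1, the smallest that 3 against 3 libraries can give. The difference stayed between -0.14 and -0.09 when any 1 library was left out. The sums hold Mthfd2 and Mthfd1, so this ratio is not separate from the differences of those genes. The members were also chosen with earlier results of these data known. Shmt2 over Shmt1 averaged 4.89 ± 0.131 at 100 nM and 4.80 ± 0.412 at 0 nM (SD, n = 3 each; exact permutation p = 0.9), and the groups overlapped. Chosen after its values were seen, the ratio of Mthfd2 to Mthfd1 was 0.470, 0.477 and 0.457 at 100 nM, against 0.573, 0.565 and 0.609 at 0 nM. It is given as a description, since both genes were picked for their differences.

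**Figure D3:**
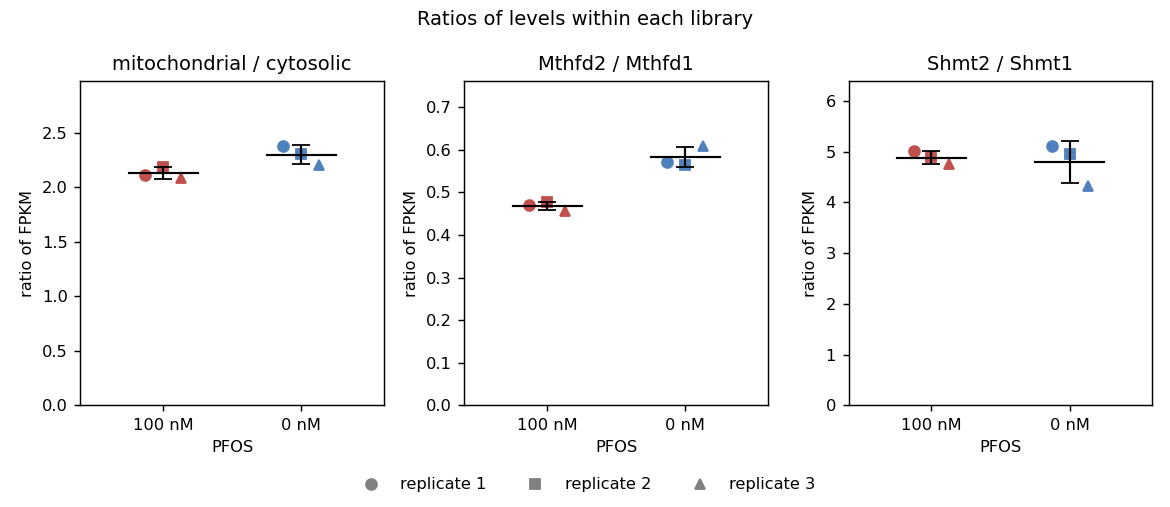
Ratios of FPKM within each library for mitochondrial over cytosolic members, Mthfd2 over Mthfd1, and Shmt2 over Shmt1, with 100 nM PFOS at the left and 0 nM PFOS at the right; markers are replicates, the bar is the mean and the whiskers are the SD (n = 3). The groups are apart in the first and second panels, with means of 2.13 against 2.30 and of 0.468 against 0.582, and overlap in the third.

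Genes near each member were read in the same test, where 4.15% of all genes tested were called and 47.4% had a difference below 0. Starts were those of the deposited tables. Within 2.5 Mb of the start of Psat1, 0 of 8 tested genes were called, 6 were higher in mean and the median difference was 0.04. Around Mthfd2, 0 of 36 were called, 20 were higher in mean and the median was 0.01. Around Phgdh, itself lower in mean, 28 of 39 neighbours were higher in mean, with 1 called higher and a median of 0.04. Around Mthfd1, itself higher in mean, 17 of 21 neighbours were higher in mean, with 0 called and a median of 0.05. Around Mthfd1l, 5 of 7 had a lower mean, with 0 called and a median of -0.13. Around Psph, itself lower in mean, 20 of 23 neighbours were higher in mean, with 1 called higher and a median of 0.08. Around Shmt2, 2 of 72 were called, both lower, while 46 were higher in mean and the median was 0.02. Around Shmt1 and Aldh1l2, 0 of 77 and 0 of 49 were called, and 37 and 32 were higher in mean. The part of position in the member values was not tested.

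Other genes of the pathway were taken from lists, and the ATF4 list was the only one of the 7 with calls. The lists were chosen with earlier results of these data known, so the share called in a list is a description only. Of its 21 tested genes, 1 rose and 4 fell, 23.8% called in all, where 4.15% of all genes tested were called, 1.69% higher and 2.46% lower. The median difference of the list was -0.05. Asns, the asparagine synthetase gene, fell to 80.7, 76.8 and 80.9 FPKM at 100 nM, against 92.1, 90.2 and 91.0 FPKM at 0 nM (limma adjusted p = 0.0144). Gpt2, a mitochondrial alanine aminotransferase gene, fell to 8.12 ± 0.0929 FPKM at 100 nM, against 9.99 ± 0.310 FPKM at 0 nM (SD, n = 3 each; limma adjusted p = 0.0106). Pck2, the mitochondrial phosphoenolpyruvate carboxykinase gene, fell to 8.02 ± 0.231 FPKM, against 9.14 ± 0.155 FPKM at 0 nM (SD, n = 3 each; limma adjusted p = 0.0419). The fourth was Chac1, a glutathione-degrading enzyme, with a difference of -0.39 and a limma adjusted p of 0.0087. Ddit4, an inhibitor of mTORC1 signalling, rose to 52.6 ± 0.335 FPKM at 100 nM, against 44.0 ± 2.61 FPKM at 0 nM (SD, n = 3 each; limma adjusted p = 0.0298). Over 18 alternatives the call was lost in 11 for Pck2, 9 for Ddit4, 5 for Asns, 3 for Gpt2 and 2 for Chac1. The 5 calls became 3 without replicate 1, 2 or 3 at 100 nM or replicate 3 at 0 nM, 2 without replicate 2 at 0 nM and 1 without replicate 1 at 0 nM. Atf4 itself, named outside the rule, stood at 87.9, 89.3 and 89.2 FPKM at 100 nM, against 95.3, 89.7 and 94.3 FPKM at 0 nM, and did not pass (limma adjusted p = 0.232).

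The routes that use folate-bound carbon had 0 calls in the limma test. Of 11 folate cycle and transport genes 10 were higher in mean at 100 nM; the median was 0.06, with 3 at an unadjusted p under 0.05, of which 1 was lower. That gene, named outside the rule, was Tyms, the thymidylate synthase, at 8.99 and 9.67 FPKM (100 nM and 0 nM; limma adjusted p = 0.140). Among the higher ones was Mtfmt, the mitochondrial methionyl-tRNA formyltransferase, at 4.74 ± 0.372 FPKM at 100 nM and 3.77 ± 0.147 FPKM at 0 nM (SD, n = 3 each; limma adjusted p = 0.0576). Of 12 purine synthesis genes 9 had a higher mean, with a median of 0.05 and 5 at an unadjusted p under 0.05. Gart, which uses formyltetrahydrofolate, stood at 41.9 ± 0.459 FPKM at 100 nM and 39.1 ± 0.458 FPKM at 0 nM (SD, n = 3 each; limma adjusted p = 0.0576). Prps1, which makes the ribose phosphate donor, stood at 63.4 and 58.3 FPKM (100 nM and 0 nM; limma adjusted p = 0.0782). None of these 4 genes passed. Of all genes tested, 47.4% had a difference below 0 and 20.7% were at an unadjusted p under 0.05.

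In serine and glycine transport and use, 6 of 11 tested genes had a higher mean. At an unadjusted p under 0.05 there were 3, where the share of all genes tested was 20.7%. Slc38a2, an amino acid transporter gene, stood at 28.8 FPKM at 100 nM and 30.5 FPKM at 0 nM (limma adjusted p = 0.0884), and Sptlc2, a serine palmitoyltransferase subunit, at 8.35 and 7.70 FPKM (100 nM and 0 nM; limma adjusted p = 0.121). In the methionine cycle and transsulfuration, 3 of 4 tested genes had a lower mean, and 2 were at an unadjusted p under 0.05. These were Mat2a, the S-adenosylmethionine synthetase gene, at 36.5 and 34.9 FPKM, and its regulatory partner Mat2b, at 10.6 and 11.5 FPKM (100 nM and 0 nM; limma adjusted p = 0.144 and 0.198). The glycine cleavage genes Dld and Gcsh had limma adjusted p of 0.505 and 0.793, with 0 at an unadjusted p under 0.05. Of 6 other reported regulators, 1 was at an unadjusted p under 0.05, Trp53 at 13.6 and 14.9 FPKM (100 nM and 0 nM; limma adjusted p = 0.118), and Ehmt2 came next (limma adjusted p = 0.786). Myc, named outside the rule, averaged 122.8 and 122.5 FPKM (100 nM and 0 nM).

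**Figure D4:**
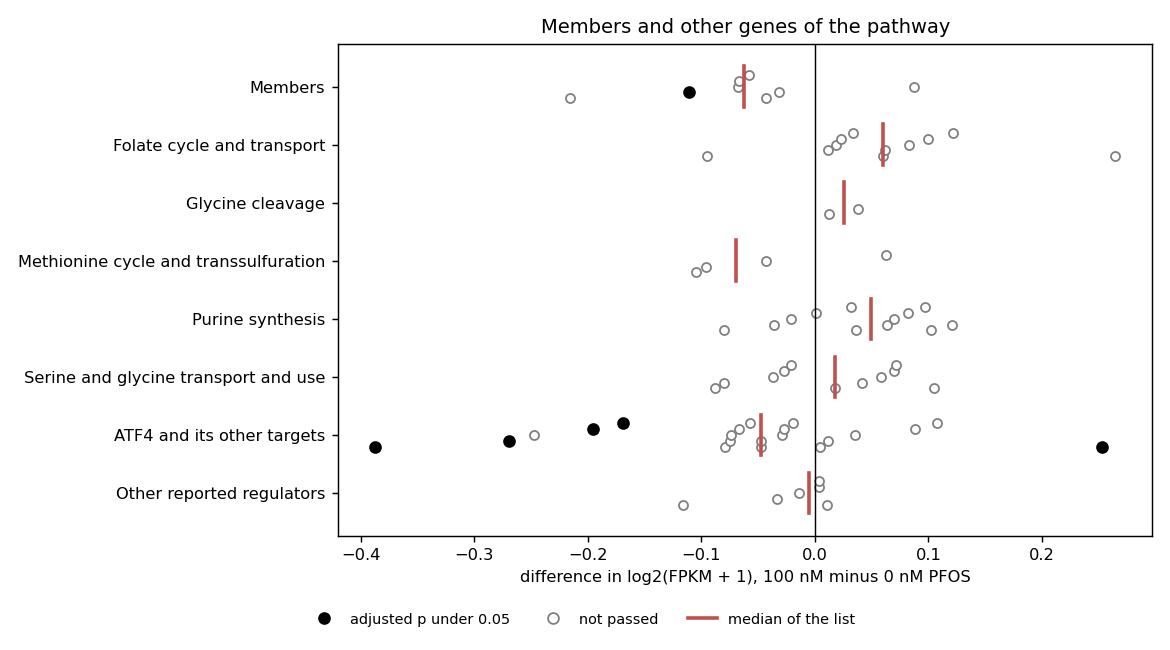
Differences in log2(FPKM + 1), 100 nM minus 0 nM PFOS, of the tested members and of the tested genes in 7 lists of related genes; filled points passed at a limma adjusted p under 0.05 and red bars are the medians of the lists. Calls are seen for 1 member, Psat1, and 5 genes of the ATF4 list, with medians of -0.06 for the members, 0.06 for folate cycle and transport and 0.05 for purine synthesis.

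The protein-coding genes closest to Psat1 in pattern over the 6 libraries were Zswim8, mt-Co1 and Chd1, out of 6805 with a mean of at least 5 FPKM. Their Euclidean distances from Psat1 in centred log2(FPKM + 1) were 0.0305, 0.0311 and 0.0347. Zswim8 averaged 12.2 FPKM at 100 nM and 13.4 FPKM at 0 nM. With 6 libraries in 2 groups, such likeness is a description only.

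Library sums lay between 306715.64 and 309380.98 FPKM, and 21042 to 21591 genes were above 0. Replicate 3 at 100 nM stood apart on the first principal component (score 19.4, others -9.57 to 0.06). It held T cell transcripts that were at or near 0 elsewhere, with Cd3e at 0.66 FPKM and at 0 in the other 5 libraries. Gzmb stood at 14.9 FPKM there and at 0 to 0.05 FPKM in the others. Cd14 stood at 65.2 FPKM, against 8.41 to 24.1 FPKM in the others. Lyz2 was not highest there, at 185.1 FPKM, against 240.4 FPKM in replicate 2 at 100 nM. The summed FPKM of 12 leukocyte markers was 145.2, 278.8 and 315.1 at 100 nM, against 186.5, 172.9 and 148.2 at 0 nM. Most of that sum was Lyz2. Summed over 7 mammary epithelial markers, FPKM was 752.1 to 803.1 at 100 nM and 715.1 to 716.0 at 0 nM. Krt8 and Krt18, named outside the rule, made up most of that sum. All 7 had a higher mean at 100 nM, and 3 of the 7 were called higher, where 1.69% of all genes tested were. The others did not pass. The sum over 11 fibroblast, endothelial and muscle markers was 6.33 to 8.88 FPKM at 100 nM and 6.01 to 6.63 FPKM at 0 nM. The part of other cell types in the member values was not tested. Without replicate 3 at 100 nM the differences were -0.12 for Psat1, -0.19 for Mthfd2, 0.10 for Mthfd1 and -0.06 for Phgdh, and 0 of the 8 members passed in the limma test.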

How the data were processed

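The submitters' processing notes name the tools fastp, HISAT2 and StringTie and the genome builds mm10 and GRCh38, without versions or roles. The sources used here give no options. The deposited values are FPKM per gene, per the file headers, written to 2 decimals. Of 28418 identifiers, 28350 matched GENCODE M21, an annotation of GRCm38. The FPKM files hold no read counts. A search of low values for a step worth 1 read placed at most 26.7% of them within 0.1 of whole steps. Whole reads could not be read back, and the depth is unknown.

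limma 3.58.1 (R 4.3.3) with a mean-variance trend was fitted to log2(FPKM + 1) for the 11741 genes averaging 1 FPKM or more over the 6 libraries, 3 libraries against 3, two-sided, adjusted by Benjamini-Hochberg over all of them. Differences on this scale understate changes of low genes. The test was also run on simulated data with known changes. Ratios used an exact permutation test. Shared words are 31-base words of GENCODE M21 transcripts. Named are all members, every called gene of a list or else its 2 smallest p-values (1 such gene is not reported here), and the 3 nearest patterns. Members and lists were chosen with earlier results of these data known. Whether replicate numbers pair the libraries is not stated by the labels. Alternatives covered scaling, pseudocount, filters, moderation, a replicate block and left-out libraries. Other steps ran in Python 3.11.15 with pandas 2.3.3, numpy 2.4.6, scipy 1.17.1 and, for the plots, matplotlib 3.10.9.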

Additional observations from a re-analysis of the deposited data

How the results depend on the processing

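Over 18 alternatives, 7 of the 8 tested members, all but Mthfd1, had a difference below 0 and Mthfd1 had one above 0 in each. The number of members called was 1 in the reported test. It was 2, Psat1 and Mthfd2, with median-of-ratios size factors, a mean of at least 5 FPKM, protein-coding genes only and robust moderation. It was 0 with no filter on low values, without the trend, with the replicate block, without replicate 3 of both groups, and in a range of 0 to 0 over leaving out each library. With quantile normalization it was 1, Mthfd2 in place of Psat1. The number of all genes called was 487, and 204 with no filter, 294 without the trend, 58 with the replicate block, 91 without replicate 3 of both groups, and 122 to 290 over leaving out each library; the fall was over 1.5 times for each of the 6. The other pathway genes called numbered 5, and 3 with no filter or without the trend, 0 with the replicate block, 0 without replicate 3 of both groups, and 1 to 3 over leaving out each library; the other settings gave 4 to 7. Leaving out a library leaves fewer libraries in the test; for the other settings the cause was not tested. Whether the replicate numbers used for the block pair the libraries is not stated by the labels. Deviations of same-numbered libraries correlated at -0.03, -0.05 and 0.01 over genes, which cannot decide it. The log2 difference of Shmt2 over Shmt1 (0.0291) turned to -0.0427 without replicate 3 at 0 nM and to -0.0231 without replicate 3 of both groups, and its range over leaving out each library was -0.0427 to 0.0769.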
